A study of Arabidopsis thaliana with 12 samples.

Results

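The genes described here are 10 Arabidopsis thaliana genes of starvation metabolism, 7 of them named for their induction in darkness (DIN1, DIN2, DIN4, DIN6, DIN9, DIN10 and DIN11) and 3 of them enzymes of branched-chain amino acid metabolism (BCAT2, MCCA and IVD). They were taken by gene identifier from tables of 32833 genes, in a choice made with earlier results of these data known. All 10 passed the filter on low values. RNA of whole seedlings was sequenced in a design of 2 genotypes and 2 light conditions. The genotypes were the cry1 mutant, which is defective in cryptochrome 1 (a receptor of blue light), and wild type (WT), and all seedlings were 10 days old and had been kept in the dark. Blue libraries came after 1 h under continuous blue light (fluence rate 40 µmol m-2 s-1), and dark libraries came from seedlings given none. The groups were cry1 blue, WT blue, cry1 dark and WT dark, with 3 libraries each and 12 in all. No cry1 allele is labelled, and nothing says that replicate libraries were sown or grown apart, so the p-values rest on a spread between libraries that may be technical.

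Dark-inducible genes were found as transcripts that accumulate in leaves kept in darkness and that sugar represses. When sugar runs short, plant cells take amino acids from protein as fuel. Leucine, isoleucine and valine lose their amino group to a transaminase, their keto acids are cut by a dehydrogenase complex, and acyl-CoA dehydrogenases pass electrons to the respiratory chain through the electron transfer flavoprotein. The freed nitrogen can be stored in asparagine. The energy-sensing kinase SnRK1 and the bZIP transcription factors of groups C and S1 are known to act on several of these genes, DIN6 among them.

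Values are TPM, transcript abundances that are scaled for transcript length and library total, carry no read depth and are relative within a library. The cry1 label was checked by CRY1 RNA, which averaged 0.580 ± 0.561 TPM in cry1 blue, 35.6 ± 13.3 TPM in WT blue, 0.980 ± 0.702 TPM in cry1 dark and 58.6 ± 1.98 TPM in WT dark (SD, n = 3 each). The related receptor CRY2 averaged 51.8 ± 7.36 TPM in cry1 blue, 45.7 ± 7.73 TPM in WT blue, 59.7 ± 10.8 TPM in cry1 dark and 94.2 ± 6.14 TPM in WT dark. A library had between 18409 and 19380 genes at 1 TPM or more. cry1 dark library 3 stood apart for these genes: it was the highest of its group for 10 of 10, at 1.45 to 4.63 times the mean of the other cry1 dark libraries, with a median of 2.74 times. WT dark library 1 was the highest of its group for 9 of 10 genes, and WT blue library 3 was the lowest of its group for 9 of 10. Markers of other tissue and of stress also differed between libraries. The summed TPM of 10 root markers was 101.1 to 134.3 in cry1 blue, 3.57 to 10.4 in WT blue, 37.9 to 61.3 in cry1 dark and 16.2 to 27.4 in WT dark. In bulk samples, fewer cells that express a gene and less RNA per cell cannot be told apart.

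The 300 bases before the annotated start of a gene were searched for short motifs in the TAIR10.1 genome, and 4 windows are printed because these genes differ most in level or light response: DIN6 had the largest fall in WT, DIN1 the highest level, DIN11 its highest level in WT blue, and DIN9 the only called rise. Each is read 5′ to 3′ on the strand of its gene, at chr3:17441432-17441731 (minus) for DIN6, chr4:16944578-16944877 (plus) for DIN1, chr3:18393447-18393746 (plus) for DIN11 and chr1:25041533-25041832 (plus) for DIN9. Capitals mark the G-box CACGTG, the ACGT core that every G-box also holds, and the I-box GATAAG or its reverse complement.
DIN6: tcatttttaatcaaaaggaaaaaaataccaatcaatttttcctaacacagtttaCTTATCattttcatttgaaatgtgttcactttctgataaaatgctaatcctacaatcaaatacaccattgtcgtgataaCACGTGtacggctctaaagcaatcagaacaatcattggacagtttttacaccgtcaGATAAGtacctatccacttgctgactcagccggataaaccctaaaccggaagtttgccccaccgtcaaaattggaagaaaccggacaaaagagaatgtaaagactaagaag
DIN1: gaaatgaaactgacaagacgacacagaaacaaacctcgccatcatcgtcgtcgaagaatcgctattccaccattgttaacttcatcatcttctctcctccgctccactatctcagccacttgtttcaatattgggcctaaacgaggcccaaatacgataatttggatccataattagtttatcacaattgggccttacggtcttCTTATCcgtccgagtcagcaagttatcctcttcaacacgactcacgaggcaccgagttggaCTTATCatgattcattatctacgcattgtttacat
DIN11: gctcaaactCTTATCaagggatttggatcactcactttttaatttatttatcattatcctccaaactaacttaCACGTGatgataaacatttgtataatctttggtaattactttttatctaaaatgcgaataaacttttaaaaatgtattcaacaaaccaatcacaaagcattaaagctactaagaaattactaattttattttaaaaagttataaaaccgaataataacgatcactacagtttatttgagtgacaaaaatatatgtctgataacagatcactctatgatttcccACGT
DIN9: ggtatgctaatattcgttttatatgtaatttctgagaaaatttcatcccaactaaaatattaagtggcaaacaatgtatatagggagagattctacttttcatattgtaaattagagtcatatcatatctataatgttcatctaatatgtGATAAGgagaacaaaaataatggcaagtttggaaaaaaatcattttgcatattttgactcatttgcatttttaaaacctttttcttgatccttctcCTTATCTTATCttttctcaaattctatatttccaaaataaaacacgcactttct

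The G-box is a binding motif of bZIP and bHLH factors, and it lay 167 bases before the start in DIN6 and 227 bases before it in DIN11. No other member had one, and 7.09% of 27443 promoter windows of the same length did. An ACGT core was present in 5 of 10 members (DIN4, DIN6, DIN10, DIN11 and BCAT2), against 49.0% of all windows. The I-box, a motif known from promoters of light-regulated genes, was present in 6 of 10 (DIN1, DIN4, DIN6, DIN9, DIN11 and BCAT2), against 14.5% of all windows. Both strands were searched. The element TATCCA, known from sugar-starvation promoters of rice, was found in DIN6 alone of the members (16.2% of all windows) and ACTCAT, a motif of group S1 bZIP factors, in DIN9 alone (14.8%). The evening element AAAATATCT was found in no member window and in 2.79% of all windows. These matches are a description of letters in the window.

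In the annotation of TAIR10.1 the genes span chr1:3288087-3290471 (BCAT2), chr3:4382198-4384436 (DIN4), chr3:16621452-16625043 (IVD), chr1:739544-744184 (MCCA), chr3:17437840-17441431 (DIN6), chr4:16944878-16946266 (DIN1), chr5:6833564-6836862 (DIN10), chr3:22216540-22220824 (DIN2), chr3:18393747-18397050 (DIN11) and chr1:25041833-25044659 (DIN9). BCAT2, DIN4, MCCA, DIN6 and DIN10 overlap a gene on the opposite strand. Whether reads were counted by strand is not given in the sources used here, so their values may hold reads of that neighbour.

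The branched-chain enzymes were high in WT dark and low in the other 3 groups. BCAT2 (AT1G10070), a transaminase of leucine, isoleucine and valine, had 9.70, 8.90 and 10.4 TPM in cry1 blue, 19.9, 20.6 and 8.35 TPM in WT blue, 10.9, 11.5 and 33.8 TPM in cry1 dark, and 156.2, 60.9 and 93.25 TPM in WT dark. DIN4 (AT3G13450), the E1 beta subunit of the branched-chain keto acid dehydrogenase, had 11.2, 8.51 and 13.5 TPM in cry1 blue, 30.6, 39.5 and 14.4 TPM in WT blue, 15.35, 13.7 and 21.1 TPM in cry1 dark, and 83.05, 52.3 and 50.1 TPM in WT dark. All 3 WT dark libraries lay above all other libraries for both genes, while WT blue overlapped cry1 dark for both. IVD (AT3G45300), isovaleryl-CoA dehydrogenase of leucine breakdown, had 51.6, 39.4 and 44.7 TPM in cry1 blue, 63.4, 70.0 and 45.8 TPM in WT blue, 38.1, 38.5 and 77.0 TPM in cry1 dark, and 223.4, 158.8 and 167.2 TPM in WT dark. MCCA (AT1G03090), the biotin-carrying subunit of methylcrotonyl-CoA carboxylase that acts after IVD, had 9.24, 7.52 and 9.50 TPM in cry1 blue, 17.7, 19.3 and 6.24 TPM in WT blue, 11.5, 11.7 and 35.9 TPM in cry1 dark, and 169.7, 106.1 and 123.2 TPM in WT dark. For IVD and MCCA too the lowest WT dark library was above every other library of the series.

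DIN6, DIN1 and DIN10 reached the highest levels of the set. DIN6 (AT3G47340, also ASN1), the glutamine-dependent asparagine synthetase, had 4.98, 11.6 and 9.50 TPM in cry1 blue, 26.6, 32.75 and 7.53 TPM in WT blue, 18.6, 33.3 and 104.9 TPM in cry1 dark, and 405.5, 183.5 and 285.4 TPM in WT dark. DIN1 (AT4G35770), a rhodanese-domain protein also known as a senescence-associated transcript, had 187.4, 74.65 and 215.8 TPM in cry1 blue, 266.3, 210.8 and 93.85 TPM in WT blue, 111.8, 144.4 and 315.85 TPM in cry1 dark, and 1605, 927.0 and 1166 TPM in WT dark. WT blue overlapped both cry1 groups for DIN6 and for DIN1, and all were below WT dark. DIN10 (AT5G20250), of the raffinose synthase family, had 47.4, 60.0 and 60.2 TPM in cry1 blue, 119.0, 136.5 and 73.0 TPM in WT blue, 139.0, 86.45 and 260.7 TPM in cry1 dark, and 535.0, 361.6 and 427.2 TPM in WT dark. DIN10 was the only one of these 3 whose cry1 blue libraries all lay below the WT blue libraries.

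DIN11 and DIN9 followed another order, with the highest mean in WT blue. DIN2 had nearly equal means in WT blue (36.58 ± 25.17 TPM) and WT dark (36.37 ± 18.84 TPM; SD, n = 3 each). DIN2 (AT3G60140), a beta-glucosidase of the glycosyl hydrolase superfamily, had 1.63, 2.10 and 2.22 TPM in cry1 blue, 58.5, 42.1 and 9.10 TPM in WT blue, 3.07, 4.27 and 15.04 TPM in cry1 dark, and 57.9, 23.1 and 28.1 TPM in WT dark. DIN11 (AT3G49620), a 2-oxoglutarate and Fe(II)-dependent oxygenase, had 13.9, 15.09 and 15.02 TPM in cry1 blue, 59.8, 250.75 and 84.6 TPM in WT blue, 10.2, 7.69 and 41.5 TPM in cry1 dark, and 56.9, 46.2 and 36.65 TPM in WT dark. The 2 genes had WT blue libraries spread widely, from 9.10 to 58.5 TPM for DIN2 and from 59.8 to 250.75 TPM for DIN11. DIN9 (AT1G67070), a mannose-6-phosphate isomerase, was the lowest of the set, with 2.76, 2.82 and 3.22 TPM in cry1 blue, 8.35, 6.68 and 6.44 TPM in WT blue, 1.07, 1.15 and 2.65 TPM in cry1 dark, and 2.75, 2.52 and 3.28 TPM in WT dark. Its 3 WT blue libraries were above every other library.

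**Figure D1:**
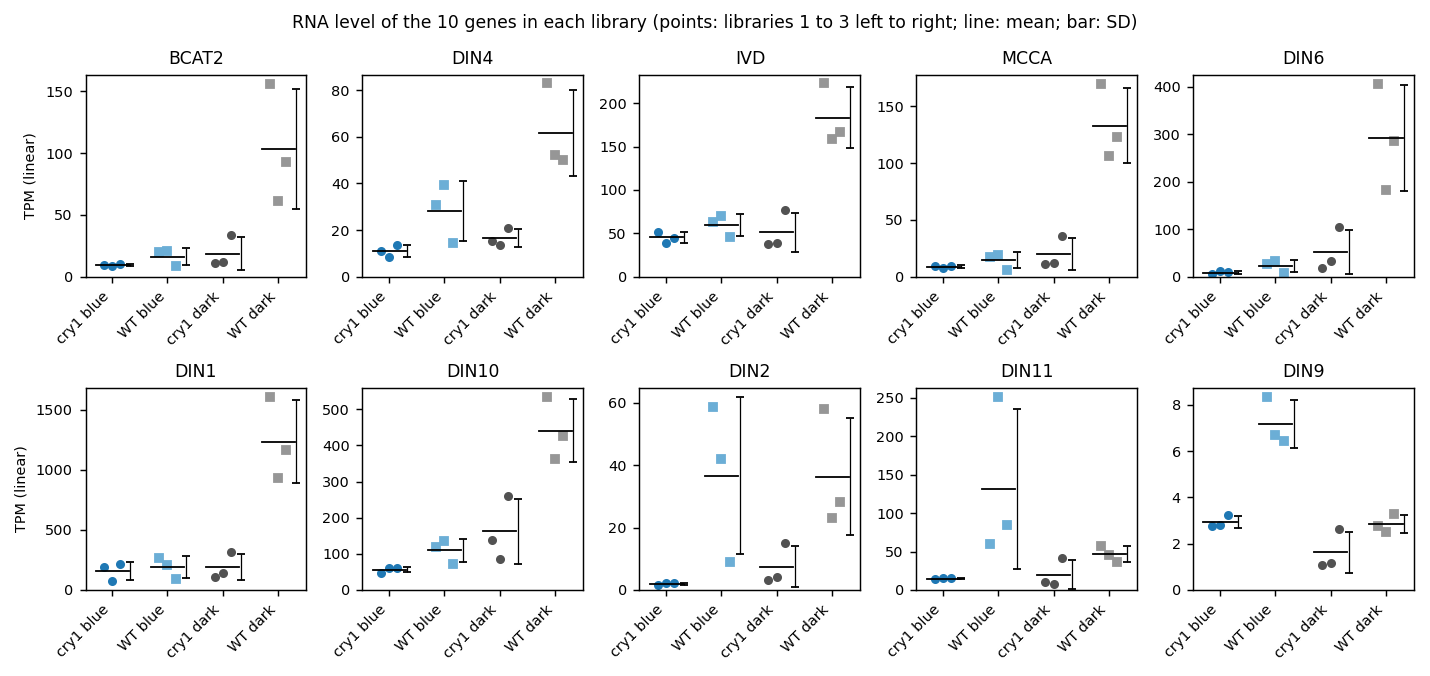
RNA level in TPM (linear axes from 0) of each of the 10 genes in the 12 libraries, with 3 points per group, the group mean as a line and the SD as a bar. For 7 genes the mean was highest in WT dark, and for DIN2, DIN11 and DIN9 it was highest in WT blue, with DIN2 nearly equal in WT dark. The third cry1 dark point is the highest of its group in all 10 panels.

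Across groups, the mean was highest in WT dark for 7 members and in WT blue for 3, of which DIN2 was nearly equal in WT dark. It was lowest in cry1 blue for 9 members and in cry1 dark for DIN9. By mean TPM in WT dark, a scale set per length, the order was DIN1 (1233), DIN10 (441.3), DIN6 (291.5), IVD (183.1), MCCA (133.0), BCAT2 (103.4), DIN4 (61.8), DIN11 (46.6), DIN2 (36.4) and DIN9 (2.85). Neighbours from DIN10 to DIN2 had overlapping library ranges, while DIN1 stood above DIN10 and DIN9 below DIN2 in every WT dark library. Over the 12 libraries, as a description of points that share libraries, the log2 values of 8 members correlated with the mean of the set at r = 0.891 (DIN6) to 0.975 (DIN4), while DIN11 had r = 0.637 and DIN9 r = 0.280. Each member is itself part of that mean, which raises its r.

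The first comparison asked what 1 h of blue light did in WT. Most of the starvation genes fell: 7 of 10 were lower in WT blue than in WT dark, by 2.26-fold to 13.9-fold on the scale of log2(TPM + 1), and DIN9 alone rose. Of all 20314 genes tested, 25.3% were called lower and 9.73% higher (limma, Benjamini-Hochberg adjusted p under 0.05). The median log2 fold change was -1.82 over the members and -0.27 over all genes. For 7 members all WT blue libraries lay below all WT dark libraries, as they did for 38.9% of all genes, and for DIN9 and DIN11 they lay above, as for 13.7% of all genes.

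DIN6 fell most, with a log2 fold change of -3.80 ± 0.59 (SE; limma adjusted p = 0.00047), a 13.9-fold lower level. In the leucine branch, MCCA changed by -3.23 ± 0.43 (adjusted p = 0.00014), BCAT2 by -2.59 ± 0.435 (adjusted p = 0.00076) and IVD by -1.61 ± 0.26 (adjusted p = 0.00062) on the same scale. DIN1 was 6.87-fold and DIN10 4.085-fold lower in WT blue (limma adjusted p = 0.00081 and 0.00067). DIN4 fell least of the 7, by 1.18 ± 0.32 on the log2 scale (limma adjusted p = 0.0142), and it missed the threshold with TMM-type scaling (adjusted p = 0.0827), without WT dark library 1 (0.0678) and without WT blue library 3 (0.057). DIN9 rose 2.115-fold, with all WT blue libraries above all WT dark ones (log2 1.08 ± 0.23, limma adjusted p = 0.00372). DIN11 had a log2 fold change of 1.22 ± 0.54 with all WT blue libraries above WT dark and did not pass the test (limma adjusted p = 0.0950), which it did without WT blue library 1 (log2 1.65, adjusted p = 0.0392). DIN2 had a log2 fold change of -0.22 ± 0.61 with overlapping groups (limma adjusted p = 0.796, 95% interval -1.54 to 1.09).

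Of all calls in this comparison, 27.8% were higher as deposited, 51.3% with TMM-type scaling and 45.6% with quantile normalization, and TMM-type scaling put the all-gene median log2 fold change at -0.0053 in place of -0.27. The 6 falls other than DIN4 passed under all 3 scalings. The 8 hypoxia-response genes were lower in WT blue for 7, with a summed level of 631.4 to 1492 TPM in WT blue and 2725 to 4482 TPM in WT dark, and their part in the result was not tested.

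The second comparison set cry1 against WT in the dark. The set was lower in cry1: 9 of 10 members fell by 2.92-fold to 7.29-fold, and the tenth, DIN9, had 1.62 ± 0.89 TPM in cry1 dark and 2.85 ± 0.39 TPM in WT dark (SD, n = 3 each; limma adjusted p = 0.0681). Among all genes 23.5% were called lower and 5.33% higher. The median log2 fold change was -2.09 over the members and -0.29 over all genes. In 8 members all cry1 dark libraries lay below all WT dark libraries, as in 34.7% of all genes. These values share the WT dark libraries with the WT light response.

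MCCA was 7.29-fold lower in cry1 dark (log2 -2.87 ± 0.43, limma adjusted p = 0.00106), DIN1 6.94-fold (log2 -2.80 ± 0.47, adjusted p = 0.00179) and DIN6 6.71-fold (log2 -2.75 ± 0.59, adjusted p = 0.0059). BCAT2 changed by -2.49 ± 0.435 on the log2 scale (limma adjusted p = 0.00217), IVD by -1.88 ± 0.26 (adjusted p = 0.00074) and DIN4 by -1.81 ± 0.32 (adjusted p = 0.00241). DIN10 was 2.96-fold lower (limma adjusted p = 0.00556). DIN2 was 4.93-fold lower (limma adjusted p = 0.0149), and lost the call without WT dark library 1 (0.0690) or cry1 dark library 2 (0.06635). DIN11 overlapped between the groups and had the weakest call, 2.92-fold lower at a limma adjusted p of 0.0482, lost in 11 of 14 alternatives, TMM-type scaling (0.141) and quantile normalization (0.118) included.

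cry1 dark library 3, the highest of its group for every member, also had the highest summed stress and hypoxia levels of its group. The summed TPM of 8 hypoxia genes was 1650, 1070 and 3291 in cry1 dark libraries 1, 2 and 3, against 4482, 4392 and 2725 in WT dark libraries 1, 2 and 3. The part of these levels in the result was not tested. Without cry1 dark library 3 all 10 members were called lower, DIN9 included (log2 -0.86, limma adjusted p = 0.0120). Of all calls in the dark 18.5% were higher as deposited, 45.7% with TMM-type scaling and 51.5% with quantile normalization, and 8 members stayed lower under either scaling. Root markers ran the other way, with 4 of 9 tested higher in cry1 dark and none lower (limma), and their part was not tested.

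**Figure D2:**
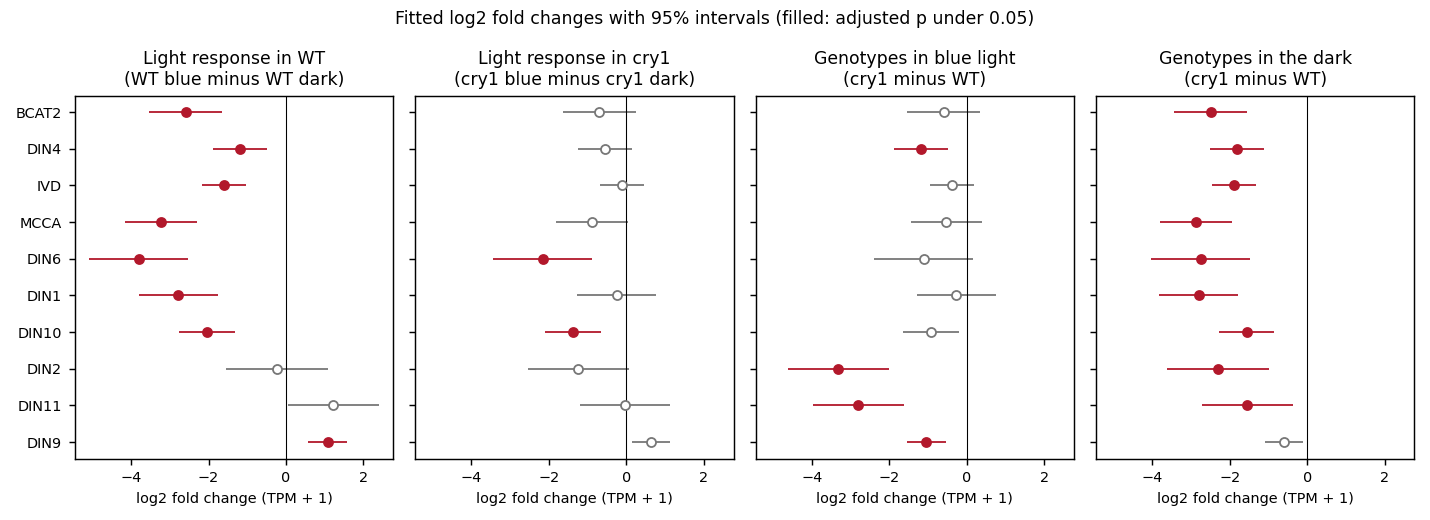
Fitted log2 fold changes of TPM + 1 with 95% intervals for the 10 genes in 4 comparisons; filled points passed an adjusted p of 0.05. Falls were called most often in the WT light response (7 lower, 1 higher) and the dark genotype difference (9 lower). Both comparisons share the WT dark libraries. The largest falls were DIN6 in the WT light response (log2 -3.80) and DIN2 in the blue-light genotype comparison (-3.32).

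The third comparison asked whether the genotypes differed after 1 h of blue light. Here 4 of 10 members were lower in cry1 blue, and they were not the members with the largest falls in the dark. Of all genes, 14.3% were called lower and 10.9% higher. All 10 members had a negative log2 fold change, with a median of -0.98 against -0.02 for all genes, and 5 had all cry1 blue libraries below all WT blue libraries, as in 23.8% of all genes.

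On the scale of log2(TPM + 1), DIN2 was 9.96-fold lower in cry1 blue (log2 -3.32 ± 0.61, limma adjusted p = 0.001765) and DIN11 6.99-fold lower (log2 -2.80 ± 0.54, adjusted p = 0.00243). The DIN2 means were 1.98 ± 0.31 TPM in cry1 blue and 36.6 ± 25.2 TPM in WT blue. DIN9 was 2.07-fold lower (log2 -1.05 ± 0.23, limma adjusted p = 0.00529). DIN4 was 2.27-fold lower (log2 -1.18 ± 0.32, limma adjusted p = 0.0170) and missed the threshold with array weights (0.0844) or without WT blue library 1 (0.0536), WT blue library 2 (0.0870) or cry1 blue library 2 (0.0663). DIN10 had a log2 fold change of -0.92 ± 0.33 with no overlap and an adjusted p of 0.0612 (limma). It passed without WT blue library 3 (0.0297), as did DIN6 (log2 -1.72, limma adjusted p = 0.0470), whose value with all libraries was -1.11 ± 0.59 (adjusted p = 0.195).

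DIN1, BCAT2, MCCA and IVD overlapped between the genotypes in blue light. Their log2 fold changes were -0.27, -0.60, -0.53 and -0.38, with 95% intervals from -1.28 to 0.75 for DIN1, -1.54 to 0.34 for BCAT2, -1.45 to 0.39 for MCCA and -0.94 to 0.18 for IVD. In the same libraries all 8 early stress genes were lower in cry1 blue (limma), with a summed level of 231.2 to 261.3 TPM in cry1 blue and 879.4 to 2038 TPM in WT blue. Of 9 tested root markers, 7 were higher in cry1 blue and none lower, and the part of either list in the member values was not tested.

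The fourth comparison was the light response in cry1. Only DIN6 and DIN10 fell: DIN6 was 4.48-fold lower in cry1 blue than in cry1 dark (log2 -2.16 ± 0.59, limma adjusted p = 0.0255) and DIN10 2.61-fold lower (log2 -1.38 ± 0.33, adjusted p = 0.0130). The share of all genes called lower was 5.73%, and 9.19% were called higher. The median log2 fold change was -0.63 over the members and -0.06 over all genes. In 6 members all cry1 blue libraries lay below all cry1 dark libraries, as in 12.5% of all genes, and DIN9 had all cry1 blue libraries above cry1 dark, as in 15.9% of all genes, without passing the test (log2 0.63 ± 0.23, limma adjusted p = 0.0879).

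DIN2, MCCA, BCAT2 and DIN4 had log2 fold changes of -1.24, -0.89, -0.70 and -0.55 with no overlap of the groups, and none passed (limma adjusted p = 0.209, 0.196, 0.332 and 0.2997). With array weights DIN2 (log2 -1.71, limma adjusted p = 0.0450) and MCCA (log2 -1.33, adjusted p = 0.02285) passed. IVD (-0.10) and DIN1 (-0.25) overlapped. The DIN6 call was lost without cry1 dark library 3 (log2 -1.49, limma adjusted p = 0.1004), cry1 blue library 1 (0.102) or cry1 blue library 3 (0.0579). It was also lost with no filter on low values and with a replicate block (limma adjusted p = 0.0567 and 0.05001). The DIN10 call was lost without cry1 blue library 1 (limma adjusted p = 0.0520). Hypoxia genes fell here too, 7 of 8, with a summed level of 240.2 to 393.4 TPM in cry1 blue and 1070 to 3291 TPM in cry1 dark. Of 8 early stress genes 6 were lower in cry1 blue, with a summed level of 231.2 to 261.3 TPM in cry1 blue and 463.2 to 1546 TPM in cry1 dark. Of 9 tested root markers 6 were higher in cry1 blue and none lower (limma), with a summed level of 101.1 to 134.3 TPM in cry1 blue and 37.9 to 61.3 TPM in cry1 dark. The part of these 3 lists in the member values was not tested.

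The difference of the light responses, cry1 minus WT, asks whether the genotypes responded unequally. It passed for DIN1 (log2 2.53 ± 0.67, limma adjusted p = 0.0344), MCCA (2.34 ± 0.60, adjusted p = 0.0323) and IVD (1.50 ± 0.37, adjusted p = 0.0270). In each the fall in light was smaller in cry1, as the values show: DIN1 averaged 159.3 TPM in cry1 blue and 190.7 TPM in cry1 dark, but 190.3 TPM in WT blue and 1233 TPM in WT dark. A positive difference was called for 6.84% of all genes and a negative one for 2.33%. BCAT2 had 1.89 ± 0.62 (limma adjusted p = 0.0688) and DIN6 1.64 ± 0.84 (adjusted p = 0.225), neither of which passed. DIN2, DIN9 and DIN11 had negative differences of -1.01, -0.45 and -1.26 that did not pass either (limma adjusted p = 0.469, 0.399 and 0.306).

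For these 3 genes the genotypes overlapped in blue light and did not overlap in the dark. With TMM-type scaling all 3 were lost (limma adjusted p = 0.0766, 0.0657 and 0.08245), as they were without WT dark library 1, WT blue library 3, cry1 dark library 2, cry1 blue library 1 or cry1 blue library 3. A replicate block also ended all 3 calls (limma adjusted p = 0.05304 for DIN1, 0.0605 for MCCA and 0.05008 for IVD). Only IVD was left without WT dark library 2 or 3, without cry1 dark library 1, or with no filter on low values (DIN1 0.0659 and MCCA 0.0602). DIN1 was also lost without WT blue library 2 (0.0622). Without cry1 dark library 3 there were 4 calls, BCAT2 added (log2 2.40, adjusted p = 0.0201). Of all calls 74.6% were higher as deposited, 57.8% with TMM-type scaling and 59.4% with quantile normalization.

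The other enzymes of branched-chain breakdown were mostly lower in cry1 in the dark. Of 15 further genes, 5 were lower in WT blue than in WT dark and none higher (limma), against 25.3% of all genes lower, and the list median of -0.30 log2 was close to the -0.27 of all genes. The 5 were MCCB, the partner subunit of MCCA (log2 -1.78 ± 0.24, adjusted p = 0.00014), AT1G21400, a thiamine diphosphate-binding protein (-1.67 ± 0.33), ETFQO, the ubiquinone oxidoreductase of the electron transfer flavoprotein (-1.06 ± 0.26), ALDH6B2, an aldehyde dehydrogenase (-0.81 ± 0.18), and CHY1, a hydrolase of valine breakdown (-0.58 ± 0.20, adjusted p = 0.0405). MCCB averaged 15.8 ± 1.23 TPM in cry1 blue, 21.4 ± 6.13 TPM in WT blue, 23.9 ± 6.55 TPM in cry1 dark and 74.4 ± 8.61 TPM in WT dark. In the dark 11 of the 15 were lower in cry1 and none higher, against 23.5% of all genes lower, with a list median of -1.09 log2 against -0.29 for all genes, MCCB by 1.63 ± 0.24 and AT1G21400 by 2.03 ± 0.33 on the log2 scale (limma adjusted p = 0.00094 and 0.00154). TMM-type scaling gave 4 lower and 2 higher for the WT light response, and 10 lower and 1 higher in the dark.

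**Figure D3:**
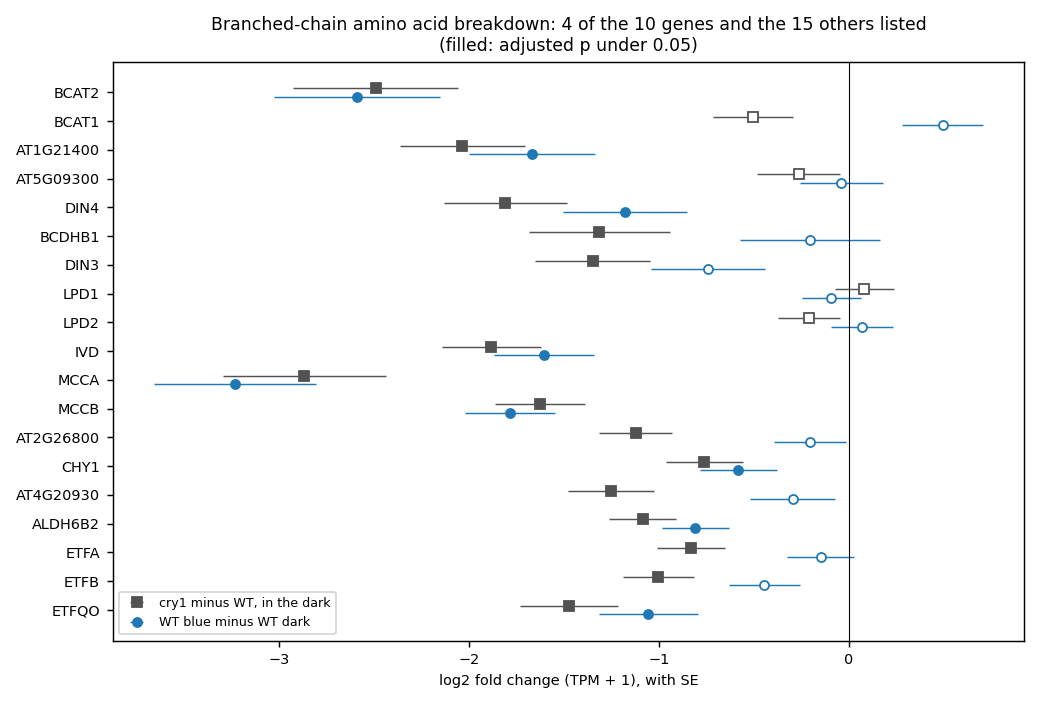
Log2 fold change of TPM + 1 with SE for 19 genes of branched-chain amino acid breakdown, cry1 minus WT in the dark (squares) and WT blue minus WT dark (circles); filled symbols passed an adjusted p of 0.05. In the dark comparison BCAT2, DIN4, IVD and MCCA and 11 of the other 15 are below 0 and filled, while LPD1, LPD2, AT5G09300 and BCAT1 are open.

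Close relatives of the members kept other levels. BCAT1, 65.5% identical to BCAT2 over the aligned coding sequence, had 11.9 ± 0.84 TPM in cry1 blue, 14.5 ± 3.28 TPM in WT blue, 6.79 ± 1.76 TPM in cry1 dark and 9.90 ± 1.06 TPM in WT dark. BCDHB1, 85.6% identical to DIN4, had 6.90 ± 1.65 TPM in cry1 blue, 22.7 ± 13.0 TPM in WT blue, 8.96 ± 2.74 TPM in cry1 dark and 23.3 ± 3.91 TPM in WT dark (SD, n = 3 each). BCDHB1 was lower in cry1 in both conditions (limma adjusted p = 0.0127 in blue and 0.0196 in the dark) and was not called for light in WT (log2 -0.20 ± 0.37). ASN2, 71.3% identical to DIN6, had 98.1 ± 13.0 TPM in cry1 blue, 54.0 ± 14.9 TPM in WT blue, 106.8 ± 18.5 TPM in cry1 dark and 81.7 ± 11.1 TPM in WT dark, so it was above DIN6 in cry1 blue and below it in WT dark. PMI1, 67.5% identical to DIN9, averaged 29.4 to 38.0 TPM in the 4 groups, far above DIN9. AT3G49630, 88.3% identical to DIN11, averaged at most 0.22 TPM in any group. Only DIN11 of the members has 50-base stretches found elsewhere in the genome (33 of 1489), so reads of those stretches could be shared.

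Of 18 enzymes that break down other amino acids, 12 were lower in cry1 dark than in WT dark, 5 were not called and 1 was higher (limma), against 23.5% of all genes lower and 5.33% higher. The higher one was the arginase ARGAH2, with 25.6 ± 4.36 TPM in cry1 dark and 8.02 ± 1.48 TPM in WT dark. Light in WT went with lower RNA of 8 and higher RNA of 2 of the 18, against 25.3% and 9.73% of all genes. The list medians were -1.13 log2 in the dark and -0.40 for light in WT, against -0.29 and -0.27 for all genes. MGL, methionine gamma-lyase, fell in WT blue (log2 -1.87 ± 0.19, adjusted p = 2e-05), while TAT7, a tyrosine transaminase, and ARGAH2, an arginase, rose (1.74 ± 0.19 and 1.77 ± 0.29). HPD, the dioxygenase of tyrosine breakdown, was lower in cry1 dark by 2.34 ± 0.28 on the log2 scale (limma adjusted p = 0.0004). ARGAH1, the other arginase, averaged 0.237 ± 0.235 TPM in cry1 blue, 21.7 ± 1.29 TPM in WT blue, 0.393 ± 0.268 TPM in cry1 dark and 19.7 ± 1.13 TPM in WT dark. Both arginase genes lie near CRY1 on chromosome 4, ARGAH1 at 18.2 kb from it and ARGAH2 at 74.8 kb. With TMM-type scaling the counts for light in WT were 4 lower and 3 higher, and for the genotypes in the dark 11 lower and 1 higher.

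Genes of nitrogen handling around asparagine were lower in part. Of 9 tested, 4 fell and 1 rose in WT blue (2 and 2 with TMM-type scaling), and 5 were lower and none higher in cry1 dark (limma), or 4 and 1 with TMM-type scaling. Among all genes 25.3% fell and 9.73% rose in WT blue, and 23.5% were lower and 5.33% higher in cry1 dark. The list medians were -0.63 log2 for light in WT and -1.06 in the dark, against -0.27 and -0.29 for all genes. PCK1, phosphoenolpyruvate carboxykinase, fell in WT blue (log2 -1.36 ± 0.26, adjusted p = 0.00164), as did the asparaginase ASPGA1 (-0.76 ± 0.16) and the glutamate dehydrogenase GDH1 (-0.77 ± 0.23). GDH2, the other glutamate dehydrogenase of high level, was the only one called in cry1 light, at 130.3 ± 10.8 TPM in cry1 blue and 382.5 ± 214.4 TPM in cry1 dark (limma adjusted p = 0.00826). The asparaginase ASPGB1 was lower in cry1 blue than in WT blue (log2 -4.23 ± 0.54, limma adjusted p = 0.00018), with 2.14 ± 0.968 TPM in cry1 blue and 74.1 ± 63.2 TPM in WT blue.

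Called shares among regulators of the pathway lay near those of all genes in the WT light response, which were 25.3% lower and 9.73% higher. Of 6 SnRK1 subunits, KINB1 and KIN10 were lower in WT blue (log2 -2.79 ± 0.29 and -0.58 ± 0.19, limma adjusted p = 2.57e-05 and 0.0312) and none was higher. KINB1, a beta subunit, averaged 16.7 ± 1.60 TPM in cry1 blue, 21.1 ± 8.22 TPM in WT blue, 38.9 ± 14.2 TPM in cry1 dark and 144.7 ± 24.6 TPM in WT dark. With TMM-type scaling 1 subunit was lower and 1 higher. Among the 9 bZIP factors of groups C and S1, 3 had lower and 1 had higher RNA in WT blue (1 lower and 2 higher with TMM-type scaling), and 4 were lower and 1 higher in cry1 dark, where 23.5% and 5.33% of all genes were. BZIP63, a group C factor, fell in WT blue (log2 -1.86 ± 0.22) and BZIP11, a group S1 factor, rose (1.53 ± 0.29; limma adjusted p = 6.249e-05 and 0.00177).

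A list of other sugar-starvation markers was lower in light in both genotypes. Of 11 genes 10 were tested, and all 10 were lower in WT blue, 8 in cry1 blue against cry1 dark, 9 in cry1 dark against WT dark and 3 in cry1 blue against WT blue (limma), with none higher in these comparisons. Among all genes the shares called lower in these comparisons were, in the same order, 25.3%, 5.73%, 23.5% and 14.3%. TMM-type scaling gave 7 instead of 9 in the dark. DYL1, a dormancy-associated protein, averaged 108.8 ± 22.8 TPM in cry1 blue, 77.8 ± 22.7 TPM in WT blue, 531.1 ± 155.9 TPM in cry1 dark and 1398 ± 417.6 TPM in WT dark. TPS10, of the trehalose phosphate synthase family, and BT2, a BTB and TAZ domain protein, fell in cry1 blue light as well (log2 -1.73 ± 0.23 and -2.22 ± 0.39, limma adjusted p = 0.00015 and 0.00147). The cry1 light response thus passed for 8 of these 10 genes and for 2 of the 10 members, and the difference between these shares was not tested.

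**Figure D4:**
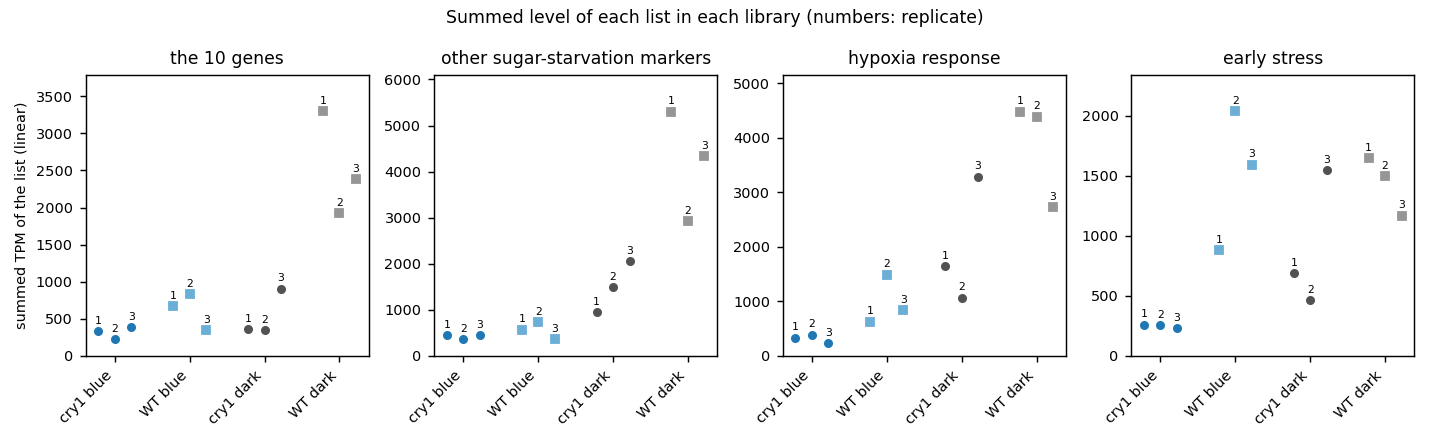
Summed TPM (linear axes from 0) of the 10 genes and of 3 other lists in each of the 12 libraries, with replicate numbers above the points. The 10 genes sum to 230.6 to 384.0 TPM in cry1 blue, 349.2 to 828.9 TPM in WT blue, 352.8 to 908.4 TPM in cry1 dark and 1922 to 3295 TPM in WT dark; cry1 dark library 3 is the highest of its group in all 4 panels.

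The 8 genes most like the mean of the members were sought among 14871 genes with a mean of at least 5 TPM, by Pearson's r of log2 values over the 12 libraries. They were PLPB (r = 0.985), THA1 (0.984), GDH1 (0.984), AT2G20670 (0.978), AT2G37480 (0.978), AT5G05100 (0.976), MYB6 (0.976) and UGT74E2 (0.975). PLPB, a PAS/LOV protein, averaged 13.0 ± 0.667 TPM in cry1 blue, 30.1 ± 7.05 TPM in WT blue, 17.5 ± 5.75 TPM in cry1 dark and 57.1 ± 9.67 TPM in WT dark. THA1, threonine aldolase, averaged 4.11 ± 0.673 TPM in cry1 blue, 19.4 ± 12.1 TPM in WT blue, 11.04 ± 10.57 TPM in cry1 dark and 71.9 ± 38.4 TPM in WT dark. THA1 and GDH1 also stand in the lists of amino acid metabolism above.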

How the data were processed

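RNA-seq of 12 seedling libraries was compared. The authors deposited 1 table of TPM values per library, with 32833 genes, a unit taken from their sums of 980965 to 996431 per library. The submitters' processing notes name TAIR10, Trimmomatic 0.36, HISAT2 2.2.1.0, Cufflinks, TopHat, Bowtie2 and DESeq 1.18.0, with no roles. TPM gives no depth, so no counting error or detection limit can be stated. Groups follow the labels, which give no batch.

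log2(TPM + 1) values of 20314 genes (at least 1 TPM in 3 or more libraries) were fitted with limma 3.58.1 (R 4.3.3), 1 mean per group, trended variance and no block, with Benjamini-Hochberg adjustment within each of 5 contrasts at 0.05. The pseudocount of 1 understates changes that involve low values, such as those of DIN9 and of DIN2 in cry1. The fit was tested on simulated data. TMM-type factors are unweighted trimmed means of log ratios, computed on the TPM values. The sources used here name no annotation release, strand setting or handling of shared reads. Sequences were handled with Python 3.11.15 and Biopython 1.88, and 32548 of the identifiers matched RefSeq's TAIR10.1 annotation.

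The 10 members and 13 further lists were chosen with earlier results of these data known. Named genes are the members, up to 5 further branched-chain genes with the smallest adjusted p in the WT light response, up to 3 genes per other list with the smallest adjusted p in the contrast described, relatives of members whose identity or level is compared, and the 8 most similar genes. CRY1 and CRY2 check the genotype labels. Promoter windows of 300 bases were read for 27443 genes. The design also named a count test, which TPM does not allow. Alternatives were 2 scalings, 2 filters, 2 pseudocounts, array weights, a replicate block and leaving out each library.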

Additional observations from a re-analysis of the deposited data

Results flagged for a closer look

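The light response differed between the genotypes for 3 of the 10 genes by a test of the difference itself (limma, cry1 response minus WT response, 20314 genes). Among all genes 6.84% had a positive difference called and 2.33% a negative one. The differences on the log2 scale were 2.53 for DIN1, 2.34 for MCCA and 1.50 for IVD, with adjusted p values of 0.0344, 0.0323 and 0.0270. These calls were easily lost: all 3 missed the threshold with TMM-type scaling (limma adjusted p = 0.0766, 0.0657 and 0.08245) and without any 1 of 5 single libraries, and DIN1 and MCCA also did with no filter on low values. All 3 missed it with the replicate block as well (limma adjusted p = 0.05304, 0.0605 and 0.05008). IVD averaged 45.2 ± 6.12 TPM in cry1 blue and 51.2 ± 22.3 TPM in cry1 dark, against 59.7 ± 12.5 TPM in WT blue and 183.1 ± 35.1 TPM in WT dark (SD, n = 3 each). For MCCA the means were 8.75 ± 1.08 TPM in cry1 blue and 19.7 ± 14.1 TPM in cry1 dark, against 14.4 ± 7.12 TPM in WT blue and 133.0 ± 32.9 TPM in WT dark. The summed TPM of 8 early stress genes was 231.2 to 261.3 in cry1 blue and 463.2 to 1546 in cry1 dark, against 879.4 to 2038 in WT blue and 1168 to 1646 in WT dark, and their part in the result was not tested.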

How the results depend on the processing

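No called value changed sign. Values never called did so for DIN2 in WT light, for DIN1, IVD and DIN11 in cry1 light, and for DIN1 between the genotypes in blue light. With TMM-type scaling the log2 fold change was 0.08 for DIN2 in WT light, against -0.22 without. For DIN11 in cry1 light it was 0.012, against -0.037 without. Over 50 pairs of a member and a contrast, 33 kept their status under all 8 alternatives and every left-out library that bears on them. The other 17 did not, and a pair that was never called counts as kept. Each call in cry1 light (DIN6 and DIN10) and in the difference of the light responses (DIN1, MCCA and IVD) was lost at least once. TMM-type scaling gave 3561 genes higher and 3384 lower in WT light, 3322 higher for the genotypes in blue light, 2315 higher and 2749 lower for the genotypes in the dark, 1 member higher in cry1 light, and 0 members and 889 lower genes for the difference of the light responses. Quantile normalization gave 3163 higher in WT light, 1824 lower in cry1 light, 3641 higher in blue light, 2748 higher and 2590 lower in the dark, and 894 lower for the difference. With no filter 1 member was lower in cry1 light, and 1 member was higher and 305 genes lower for the difference. Array weights gave 4 members and 2859 genes lower in cry1 light, 3371 higher and 4477 lower in blue light, and 3510 higher and 1622 lower for the difference. With the replicate block 1 member was lower in cry1 light, the DIN6 call being lost (limma adjusted p = 0.05001), and 0 members were higher and 271 genes lower for the difference, with adjusted p of 0.05304 for DIN1, 0.0605 for MCCA and 0.05008 for IVD. The block also ended the DIN11 call in the dark (0.07039). Deviations of same-numbered libraries from their group means had r of -0.368 to 0.312 over 18 pairs, 3 of them over 0.1. Libraries of different numbers had r of -0.334 to 0.286 over 36 pairs. Deviations from means of 3 libraries cannot show whether the numbers pair samples. The cause of these moves was not tested.

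Leaving out 1 library at a time gave 1 to 2 members higher and 3024 to 5379 genes lower in WT light. In cry1 light it gave 0 to 1 members higher, 0 to 2 members lower and 633 to 1741 genes lower. In blue light 1229 to 2355 genes were higher and 1934 to 2442 lower, and in the dark 615 to 1119 higher and 2197 to 5317 lower. The difference of the light responses had 0 to 4 members higher, 575 to 2056 genes higher and 134 to 751 lower. Depth is unknown, so low values such as those of DIN9 carry no counting limit.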

Other observations

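Autophagy and senescence genes gave a mixed picture beside the starvation genes. Of 9 ATG8 genes, which encode the ubiquitin-like protein of autophagosomes, 5 were lower in cry1 blue than in WT blue and 5 in cry1 dark than in WT dark, with none higher (limma), against 14.3% and 23.5% of all genes lower. With TMM-type scaling these counts were 4 and 1, and in WT blue against WT dark the ATG8 counts turned to 1 higher and 0 lower, against 0 higher and 2 lower as deposited (limma). ATG8F averaged 60.2 ± 20.9 TPM in cry1 blue, 101.6 ± 29.5 TPM in WT blue, 89.1 ± 19.7 TPM in cry1 dark and 243.3 ± 46.2 TPM in WT dark (SD, n = 3 each), and it fell in WT blue (log2 -1.28 ± 0.27, limma adjusted p = 0.00359). ATG8H had another order, with 24.6 ± 8.46 TPM in cry1 blue, 69.2 ± 18.0 TPM in WT blue, 20.7 ± 3.99 TPM in cry1 dark and 47.0 ± 9.61 TPM in WT dark. It was lower in cry1 in both conditions (limma adjusted p = 0.00148 in blue and 0.00765 in the dark).

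SAG12, a marker of late leaf senescence named after its values were seen, was listed at 0 in all 12 libraries. Of the 7 senescence and chlorophyll breakdown genes tested, 1 was higher and 3 lower in WT blue (TMM-type scaling gave 2 and 1), against 9.73% and 25.3% of all genes. Among them, the senescence factor ORE1 was lower in cry1 blue than in cry1 dark (log2 -1.57 ± 0.27, limma adjusted p = 0.00137) and lower in cry1 blue than in WT blue (log2 -1.32 ± 0.27, adjusted p = 0.00346). Of 8 housekeeping genes, 2 were lower in WT blue, where 25.3% of all genes were. In cry1 dark 1 was higher and 2 lower than in WT dark, against 5.33% and 23.5% of all genes. TMM-type scaling gave 1 higher and 1 lower in WT blue, and 1 higher and none lower in cry1 dark. In cry1 blue 3 were higher and 1 lower than in WT blue, with the same counts under TMM-type scaling, against 10.9% and 14.3% of all genes. The difference of the light responses was positive for 2 (1 with TMM-type scaling), against 6.84% of all genes. Of 7 tested relatives of the members, 1 was lower and 1 higher in cry1 blue than in cry1 dark, against 5.73% and 9.19% of all genes. TMM-type scaling gave 0 lower and 1 higher. The lower one was BGLU28, a beta-glucosidase (limma adjusted p = 0.0330), which was also lower in cry1 blue than in WT blue (adjusted p = 0.0112). BGLU28 had low levels, with 0.377 ± 0.042 TPM in cry1 blue, 3.26 ± 2.58 TPM in WT blue and 2.27 ± 0.21 TPM in cry1 dark.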
